A study of Mus musculus with 45 samples.

Results

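The lipid droplet and lipolysis genes described here are 8 genes chosen by name: Plin1, Plin2, Plin4 and Plin5, which encode perilipins, Cidec, and the lipase genes Pnpla2, Lipe and Mgll. Each was read through the brightest probe annotated with that gene symbol alone, current or old (Plin for Plin1, Adfp for Plin2 and S3-12 for Plin4). A probe of this kind was found for 7 of the 8 genes, 1 probe each, among 13840 genes with a single-symbol probe. Lipe, the hormone-sensitive lipase gene, had none and was not analysed here. RNA was from inguinal fat, a subcutaneous depot, of male C57BL/6J mice killed on day 5, 10, 21, 56 or 112 after birth, on Applied Biosystems Mouse Genome Survey arrays. The under-nutrition group (LUN) was nursed in litters of 8 by dams given 50% of the food of control dams. In the over-nutrition group (LON) a litter held 4 pups and the dam ate a high fat diet (58 kcal % fat). In the control group a litter held 8 pups and the dam ate a breeder diet (22 kcal % fat) without restriction. After weaning at day 21 all 3 groups received the same chow, of 11 kcal % fat, up to day 56 and then a high fat diet for 8 weeks, up to day 112. The names of the control samples give chow at every age, day 112 included, while the protocol puts all 3 groups on the high fat diet, and the protocol was followed here. Each of the 15 combinations of diet and age was 1 pool of RNA from 12 mice, hybridized to 3 arrays, so the spread between arrays is technical and a p-value against it does not measure variation between mice. In pooled fat, fewer cells of a type and less RNA per cell cannot be told apart.

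A fat cell stores triacylglycerol in a lipid droplet that is covered by perilipins. Plin1 is the main coat protein of white adipocytes and guards the droplet against lipases until it is phosphorylated on hormonal stimulation. Plin2 coats droplets in most cell types and is stabilised by lipid, Plin4 coats small nascent droplets in adipocytes, and Plin5 belongs to oxidative tissues, where it brings droplets and mitochondria together. Cidec joins droplets into larger ones. Lipolysis then runs in order through adipose triglyceride lipase, encoded by Pnpla2, hormone-sensitive lipase and monoacylglycerol lipase, encoded by Mgll.

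On 3 of the 45 arrays more than 5% of the bright probes lay over 4-fold from both other arrays of their pool: replicate 3 of LUN at day 5, replicate 3 of LON at day 21 and replicate 2 of control at day 112. The 3 arrays of LON at day 56 also disagreed with each other for several of the genes. Where leaving out the 3 arrays changed a call, turned a sign or moved a difference from control by over 1.5 times, the value without them is given beside it for the differences described below. The LON arrays were numbered in a series of their own, so a run of arrays and the LON diet cannot be told apart. Raw array medians ranged from 545 to 1459 intensity units before normalization. All 7 probes were bright, with 89.7% (Plin5) to 99.6% (Mgll) of the probes on the array dimmer. The 4 adipocyte markers measured, Fabp4, Retn, Lep and Slc2a4, gave a summed signal between 478200 and 1945000 on every array, and none of them was at 0. The 9 skeletal muscle markers measured gave a summed signal between 99600 and 4128000, so the amount of muscle RNA differed widely between pools.

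**Figure D1:**
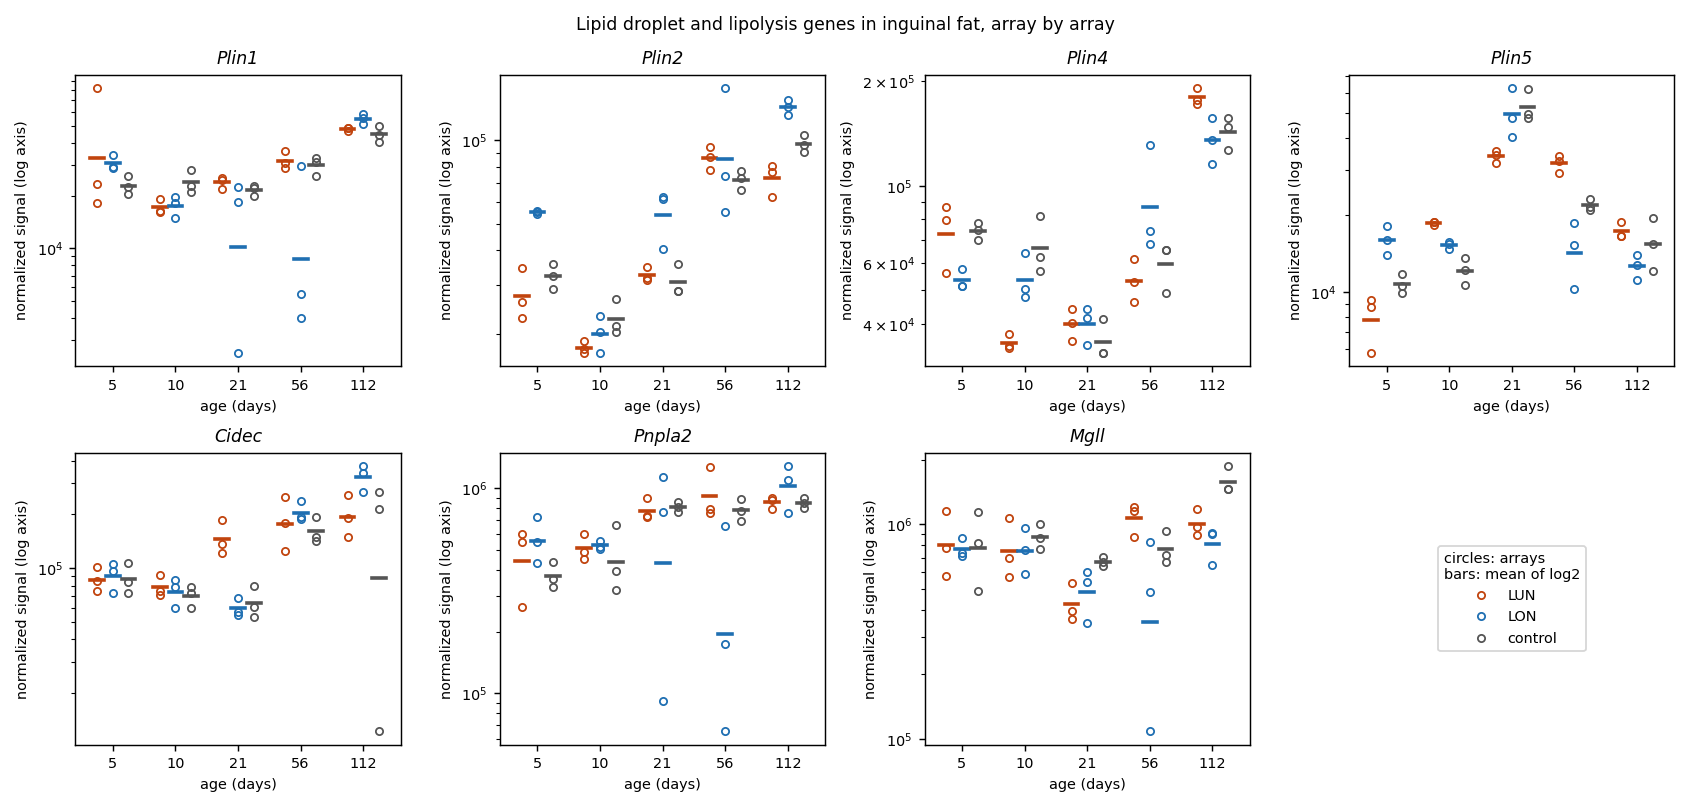
Normalized signal of the 7 genes (log axis) against age in days, for LUN, LON and control from left to right at each age. Circles are single arrays, 3 from 1 pool of 12 mice, and bars are the mean on the log2 scale. Plin5 peaked at day 21 in LON and control, and Plin4 was highest at day 112 in all 3 diets.

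Plin5 peaked at day 21 in LON and control fat, and its step after weaning was the one step among the 7 genes that was called different between diets. In LUN its signal was 8734, 9286 and 5786 at day 5, 18301, 18785 and 18869 at day 10 and 35733, 34356 and 31927 at day 21. It was still 29387, 32651 and 34042 at day 56, and 16517, 16622 and 18800 at day 112. The arrays of LUN at days 21 and 56 overlapped.

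In LON fat Plin5 was 18210, 15946 and 13961 at day 5, 15662, 14762 and 15454 at day 10 and 40589, 47870 and 63017 at day 21. It was 10311, 15235 and 18608 at day 56 and 14044, 11200 and 12816 at day 112. The day 21 arrays of LON were above every other LON array.

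In control fat the Plin5 signal was 10572, 9952 and 11755 on the 3 arrays at day 5 and 13611, 10647 and 12214 at day 10. It stood at 47901, 49761 and 62080 at day 21, then at 20926, 21446 and 23250 at day 56 and at 19487, 15426 and 12082 at day 112. The control peak at day 21 was above every other control array at every age. LON was above control with no overlap at days 5 and 10, by 0.57 and 0.34 on the log2 scale, and neither difference was called. Without the 3 arrays that stood apart and the LON day 56 pool, limma's adjusted p was 0.0516 and 0.609. LON overlapped control at day 21 and was below it at day 56 with no overlap, by 0.61 on the log2 scale (adjusted p = 0.136 with all arrays in limma's test and 0.0458 without the 3 arrays that stood apart).

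The steps of Plin5 between ages within a diet passed limma's test against the spread of the arrays, adjusted over all 33012 probes, in 7 of 12 cases. Between days 10 and 21 Plin5 rose by 0.87 on the log2 scale in LUN (SE 0.21, adjusted p = 0.0106), by 1.70 in LON (adjusted p = 1.29e-06) and by 2.13 in control (adjusted p = 9.39e-09). Between days 21 and 56 the LUN difference was -0.09 (95% interval -0.52 to 0.34), while Plin5 fell by 1.80 in LON (adjusted p = 6.21e-07) and by 1.28 in control (adjusted p = 0.000163). The LUN step from day 21 to 56 differed from the control step by 1.19 log2 units (SE 0.30, adjusted p = 0.0326). This was the 1 call among 28 tests of a difference between diets in a step, where 0.635% of all tests were called, and 1.39% of probes in this comparison. With median scaling the same difference was 0.64 and was not called, and it was also lost when any of 8 of the 12 arrays was left out. In LUN Plin5 also rose by 1.26 between days 5 and 10 (adjusted p = 0.000623) and fell by 0.89 between days 56 and 112 (adjusted p = 0.0123). With median scaling these were 0.79 and -0.76 and the control step from day 21 to 56 was -0.73, and none of the 3 was called.

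The estimated difference of LUN from control had both signs. LUN was below control at day 21 by 0.64 (95% interval -1.07 to -0.21, adjusted p = 0.105), above it at day 10 by 0.62 (adjusted p = 0.173) and above it at day 56 by 0.55 (adjusted p = 0.434), with no overlap of arrays at these 3 ages. At day 5 it was below by 0.47 (adjusted p = 0.323), also with no overlap, and by 0.25 without the 3 arrays that stood apart. None of the 4 passed with all arrays. Without the 3 arrays that stood apart the day 21 difference was called (adjusted p = 0.0464), and without the LON day 56 pool as well, the day 10 difference too (adjusted p = 0.035).

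Plin5 moved with the markers of brown fat. Over the 15 pools the log2 signal of Plin5 had Pearson's r = 0.87 with the summed signal of 6 brown fat markers (Ucp1, Cidea, Cox7a1, Cox8b, Dio2 and Elovl3), 0.62 with 6 lymphocyte markers, 0.38 with 9 skeletal muscle markers and -0.04 with 4 adipocyte markers. These are descriptions over pools that share a depot and an array platform. The summed brown fat signal at day 21 was 1868000 to 2088000 in LUN and 3359000 to 4118000 in control, and at day 56 it was 1999000 to 2245000 in LUN and 1845000 to 1871000 in control. Of the 6 markers, 1 passed the test of the LUN step against the control step between days 21 and 56, Ucp1, at 2.75. The summed muscle signal was 824900 to 988300 in LUN and 2781000 to 3336000 in control at day 21, and 1125000 to 1220000 in LUN and 124500 to 135400 in control at day 56. For muscle, 8 of the 9 markers passed the same test, all in the same direction as Plin5. None of these markers was at 0 on any array, and their part in the Plin5 result was not tested.

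Plin4 was lower in LUN than in control at day 10. At that age its signal was 37546, 34119 and 34580 in LUN, against 81994, 62234 and 56725 in control. All LUN arrays lay below all control arrays. The difference was -0.90 on the log2 scale (SE 0.22, adjusted p = 0.0221), or 1.87-fold lower in LUN. It was the 1 call among the 35 tests of LUN against control over 7 genes and 5 ages, where 1.25% of all tests were called, and 1.39% of probes at day 10. The call was lost when control replicate 1 or 2 or LUN replicate 2 or 3 at day 10 was left out.

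A fall of Plin4 was called from day 5 to 10 in LUN and from day 10 to 21 in control. At day 5 the LUN arrays gave 79518, 87033 and 55981 and the control arrays 69638, 78071 and 74618, which overlapped. At day 21 they gave 35670, 40215 and 44286 in LUN and 33060, 41362 and 33018 in control, and overlapped again. Within LUN Plin4 fell by 1.04 between days 5 and 10 (adjusted p = 0.00778) and differed by 0.17 between days 10 and 21. Within control it differed by -0.16 between days 5 and 10 and fell by 0.89 between days 10 and 21 (adjusted p = 0.00945). The LUN step was lost without LUN replicate 2 at day 5, and the control step without control replicate 1 at day 10. Whether these early steps differed between diets was not tested.

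In LON the Plin4 signal was 50303, 64072 and 47828 at day 10 and 34736, 41572 and 44322 at day 21, each overlapping control. At day 5 it was 57473, 51380 and 51592 in LON, against 69638, 78071 and 74618 in control, with no overlap and a difference of -0.47 (adjusted p = 0.393). Beside the day 10 result in LUN, the 4 adipocyte markers summed to 494600 to 770600 in LUN and 860700 to 1292000 in control, and 1 of them, Lep, was called, lower. The 9 muscle markers summed to 1148000 to 1208000 in LUN and 242800 to 296900 in control, and 9 were called, higher. Their part in the Plin4 result was not tested.

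On the high fat diet Plin4 reached its highest levels. At day 112 the signal was 191570, 176422 and 171593 in LUN, 157131, 115821 and 135915 in LON and 156838, 148204 and 126616 in control. The LUN arrays were above all arrays of LON and control at that age. From day 56, Plin4 rose by 1.76 in LUN (3.38-fold, adjusted p = 1.36e-06) and by 1.27 in control (2.41-fold, adjusted p = 0.000297). LON differed by 0.64 (adjusted p = 0.13), from day 56 arrays of 131078, 68146 and 73943 that overlapped those of day 112. The LUN step exceeded the control step by 0.49 (95% interval -0.13 to 1.11, adjusted p = 0.51). Between days 21 and 56 Plin4 rose by 1.12 in LON (adjusted p = 0.00175) and by 0.74 in control (adjusted p = 0.0497). This control call was lost with the authors' deposited normalized values, with a term for replicate number and without any 1 of 5 of the 6 arrays. The control rise on the high fat diet was not called with median scaling.

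Plin4 and Plin5 are neighbouring genes on the minus strand of mouse chromosome 17 (GRCm38.p6), Plin4 at chr17:56100587-56109948 and Plin5 at chr17:56111597-56117606. Over the 15 pools their log2 signals had r = -0.56, and r = -0.69 after the mean of each age was removed (-0.65 without the 3 arrays and the LON day 56 pool). In control fat Plin5 was at its peak at day 21 while Plin4 was at its lowest, and from day 56 to 112 Plin4 rose while Plin5 differed by -0.51 (adjusted p = 0.2). The 250 bases before a RefSeq start site of both genes are shown because the 2 neighbours ran in opposite directions, and those of Plin2 because 5 of the Plin2 steps between ages were called. They come from RefSeq (GRCm38.p6), which had a start site for all 8 genes, read 5' to 3' on the coding strand. The start sites of the windows lie inside the genes' full spans, 166 bases from the outer end of Plin4, 58 from that of Plin5 and 158 from that of Plin2, so each window covers the first bases of its gene's span. Capitals mark TATAA and AGGTCA, the half-site of nuclear receptors, on either strand.

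Plin4 (chr17:56109783-56110032): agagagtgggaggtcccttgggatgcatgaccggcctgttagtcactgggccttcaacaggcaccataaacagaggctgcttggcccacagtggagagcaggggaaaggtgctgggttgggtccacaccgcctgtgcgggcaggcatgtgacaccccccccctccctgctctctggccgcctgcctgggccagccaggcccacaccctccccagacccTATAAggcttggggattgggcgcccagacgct
Plin5 (chr17:56117549-56117798): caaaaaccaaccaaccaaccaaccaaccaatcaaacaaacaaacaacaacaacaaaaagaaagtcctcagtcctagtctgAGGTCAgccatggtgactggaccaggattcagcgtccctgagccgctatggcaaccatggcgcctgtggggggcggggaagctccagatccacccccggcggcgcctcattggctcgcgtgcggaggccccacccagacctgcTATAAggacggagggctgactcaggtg
Plin2 (chr4:86670060-86670309): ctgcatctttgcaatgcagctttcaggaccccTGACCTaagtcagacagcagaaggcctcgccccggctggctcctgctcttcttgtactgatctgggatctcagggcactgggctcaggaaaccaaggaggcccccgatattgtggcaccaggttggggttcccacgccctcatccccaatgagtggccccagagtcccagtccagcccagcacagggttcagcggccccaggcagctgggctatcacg

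Counted from the base before the start as -1, TATAA began at -32 in Plin4 and at -27 in Plin5, and was in no other window of the 8 genes. It was found in 22.8% of all 32851 start site windows of this length. AGGTCA was found once in Plin5, at -170, and once in Plin2, at -218, against 14% of all windows. CACGTG was in the windows of Lipe and Mgll, against 6.02% of all windows. The direct repeat DR1, a pair of such half-sites with 1 base between them, was in none of the 8 windows and in 0.338% of all. The motifs were searched on both strands, and no 2 of them overlapped in the windows shown.

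Plin2 rose after weaning in LUN and control. From day 21 to day 56 Plin2 rose by 1.41 in LUN (2.65-fold, adjusted p = 0.000134), differed by 0.68 in LON (adjusted p = 0.197) and rose by 1.22 in control (2.33-fold, adjusted p = 0.00147). The fibroblast and preadipocyte markers, 6 measured, went the other way over the 15 pools (r = -0.85 with Plin2), and the 5 macrophage markers the same way (r = 0.79). Their part in the Plin2 steps was not tested.

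The LUN signal of Plin2 was 34525, 26043 and 22894 at day 5, 18875, 17693 and 17126 at day 10, 31276, 34758 and 31726 at day 21, 94530, 86649 and 78252 at day 56 and 62192, 80880 and 76578 at day 112. At day 112 the LUN arrays lay below all control arrays, by 0.41 (95% interval -0.90 to 0.07, adjusted p = 0.458). On the high fat diet LUN differed by -0.24 from day 56 and control by 0.43, neither called, and the difference of these steps was -0.67 (95% interval -1.36 to 0.01, adjusted p = 0.39).

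The mean of Plin2 fell from day 5 to 10 and rose again to day 21 in all 3 diets. In LUN the rise between days 10 and 21 was 0.86 and was called. That call was lost with median scaling and without any 1 array of either pool. Both steps were called in LON. The LON signal of Plin2 was 54924, 55711 and 54242 at day 5, 23290, 20344 and 17099 at day 10 and 40345, 62342 and 61232 at day 21. It fell by 1.45 between days 5 and 10 (2.74-fold lower, adjusted p = 0.000142) and rose by 1.42 between days 10 and 21 (2.67-fold, adjusted p = 0.000245). With median scaling the second of these steps was 1.17 and was not called. LON was above control at day 5 by 0.77 (95% interval 0.28 to 1.25, adjusted p = 0.102) and at day 21 by 0.80 (95% interval 0.31 to 1.28, adjusted p = 0.0932), with no overlap of arrays at either age. Neither passed with all arrays, and without the 3 arrays that stood apart and the LON day 56 pool the day 5 difference was called (adjusted p = 0.00988). At day 112 the LON arrays gave 123277, 139704 and 131649, above every other array of Plin2 except 1 of LON at day 56, and 0.44 above control (adjusted p = 0.377). In control fat the Plin2 signal was 32242, 29163 and 35776 at day 5, 26662, 21352 and 20411 at day 10 and 28674, 35754 and 28674 at day 21. It was 77096, 66012 and 73233 at day 56 and 103955, 96111 and 90888 at day 112.

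Cidec was higher in LUN than in control at day 21. The LUN arrays gave 122327, 137400 and 186620, against 61049, 79778 and 53050 in control, with no overlap. The difference was 1.20 (2.30-fold, 95% interval 0.07 to 2.34), with an adjusted p of 0.323 when all arrays set the spread and of 0.0028 without the 3 arrays that stood apart. The SE of the day 21 difference was 0.56 with all arrays and 0.25 without the 3. Among the 3 is replicate 2 of control at day 112, which read 12244 where the other 2 arrays read 266239 and 213534. With that array, the differences from control at day 112 were 1.13 in LUN and 1.87 in LON, and without the 3 arrays they were -0.29 (95% interval -0.86 to 0.27) and 0.44 (95% interval -0.13 to 1.01).

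From day 21 to day 56 Cidec differed by 0.28 in LUN, by 1.78 in LON and by 1.34 in control. None was called with all arrays. Without the 3 arrays the LON step was 1.87 (adjusted p = 7.16e-05) and the control step 1.34 (adjusted p = 0.000725), and the LUN step from day 10 to 21 was 0.90 (adjusted p = 0.0248). The difference between the LUN and control steps from day 21 to 56 was -1.06 (95% interval -2.67 to 0.54, adjusted p = 0.64). LON at day 112 held the highest Cidec signals of the series, 373030, 339536 and 267466.

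Plin1 was called different from control at no age in either diet with all arrays. At day 5 its signal was 28830, 34042 and 28915 in LON, against 20483, 22402 and 25699 in control, with no overlap and a difference of 0.42 (adjusted p = 0.912). At day 112 its arrays ranged from 46896 to 48596 in LUN, from 51241 to 58167 in LON and from 40482 to 49602 in control, the highest levels of the gene apart from 1 LUN array at day 5. LON did not overlap control there either, at 0.30 above it (adjusted p = 0.869). At day 10 they ranged from 16220 to 19131 in LUN, from 14850 to 19619 in LON and from 21041 to 28060 in control. LUN and LON were both below control at day 10 without overlap, by 0.47 (adjusted p = 0.897) and by 0.44 (adjusted p = 1). Without the 3 arrays that stood apart and the LON day 56 pool, limma's adjusted p was 0.14 and 0.307, neither called. In that setting the LON difference of Plin1 between days 5 and 10 was -0.81 and was called (adjusted p = 0.00162). The rise of Plin1 from day 56 to 112 was then 0.60 in LUN and was called (limma adjusted p = 0.0255). In control this rise was 0.65 and was not called (adjusted p = 0.0501). Neither rise was called with all arrays. Replicate 3 of LUN at day 5 read 82244, against 23220 and 18052 on the other 2 arrays, and replicate 3 of LON at day 21 read 2534, against 18478 and 22303. With these arrays the difference from control was 0.52 in LUN at day 5 and -1.08 in LON at day 21, and without the 3 arrays it was -0.15 and -0.08, none of them called.

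Low levels of Plin1 and Pnpla2 in LON at day 56 were read on 2 of the 3 arrays. For Plin1 the LON arrays gave 5524, 29488 and 3990, and the control arrays 32716, 25957 and 30947. For Pnpla2 they gave 65173, 654947 and 173713 in LON and 777867, 693578 and 886197 in control. For Mgll they gave 108522, 832774 and 483989 in LON and 670234, 722288 and 928064 in control. Replicate 2 of LON was within or near the control range for each of the 3 genes, and replicates 1 and 3 were below it. In LON replicates 1, 2 and 3, 2.91%, 3.11% and 0.679% of bright probes lay over 4-fold from both other arrays of the pool. Their mean r with the other arrays of the pool was 0.893, 0.885 and 0.917, so replicate 2 agreed least with its pool and replicate 3 most. LON was 3.43-fold lower than control for Plin1 (adjusted p = 0.0917) and 4.01-fold lower for Pnpla2 (adjusted p = 0.0705). They were called without the 3 arrays that stood apart, which do not include LON at day 56 (adjusted p = 0.00357 and 0.00502). Replicate 1 of LON at day 56 was kept in that fit. Over all probes its deviations from its pool had r = 0.584 with those of LON replicate 3 at day 21. The r was 0.487 with LUN replicate 3 at day 5 and -0.007 with control replicate 2 at day 112. The rises of Plin1 by 2.66 (adjusted p = 0.00387) and of Pnpla2 by 2.39 (adjusted p = 0.0176) from day 56 to 112 in LON were both lost without LON replicate 1 or 3 at day 56, and that of Pnpla2 also without LON replicate 1 or 3 at day 112.

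Pnpla2, the gene of the lipase that starts triacylglycerol breakdown, gave no called difference from control at any age with all arrays. Its signal in LUN at day 21 was 733404, 722288 and 894318, against 857979, 768807 and 807546 in control, a difference of -0.06 with a 95% interval from -1.24 to 1.13. In LON at day 21 it was 768807, 1131280 and 91667, the last of them the array that stood apart, and the difference from control was -0.91 (adjusted p = 0.532) with it and 0.20 (adjusted p = 0.933) without the 3 arrays. Ordered by level over the 15 pools, every one of its 14 pairs of neighbouring pools had overlapping arrays. In control fat the arrays at day 21 were above those at day 10 (661791, 318344 and 393179), by 0.90 (adjusted p = 0.492). Without the 3 arrays that stood apart and the LON day 56 pool, this control step was called in limma's test (adjusted p = 0.0196).

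After the high fat diet Mgll was 891110, 971074 and 1184770 in LUN and 916674, 646283 and 900904 in LON, against 1457450, 1872500 and 1457450 in control. Neither early diet overlapped control there, and the differences were -0.65 in LUN (95% interval -1.50 to 0.20, adjusted p = 0.52) and -0.97 in LON (95% interval -1.81 to -0.12, adjusted p = 0.228). Without the 3 arrays that stood apart, 1 of them in this control pool, they were -0.53 (adjusted p = 0.797) and -0.85 (adjusted p = 0.52). At day 21 the LUN arrays gave 532855, 394233 and 363578, below all control arrays at 670234, 701612 and 638257, by 0.66 (adjusted p = 0.537). From there to day 56 Mgll rose by 1.33 in LUN (adjusted p = 0.0486), a call lost with median scaling, with cyclic loess and without any 1 of 5 of the 6 arrays. At day 112 the 9 muscle markers summed to 475000 to 487000 in LUN, 99600 to 114700 in LON and 2140000 to 2542000 in control. All 9 were called lower than control in both diets. Their part in the Mgll differences was not tested.

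**Figure D2:**
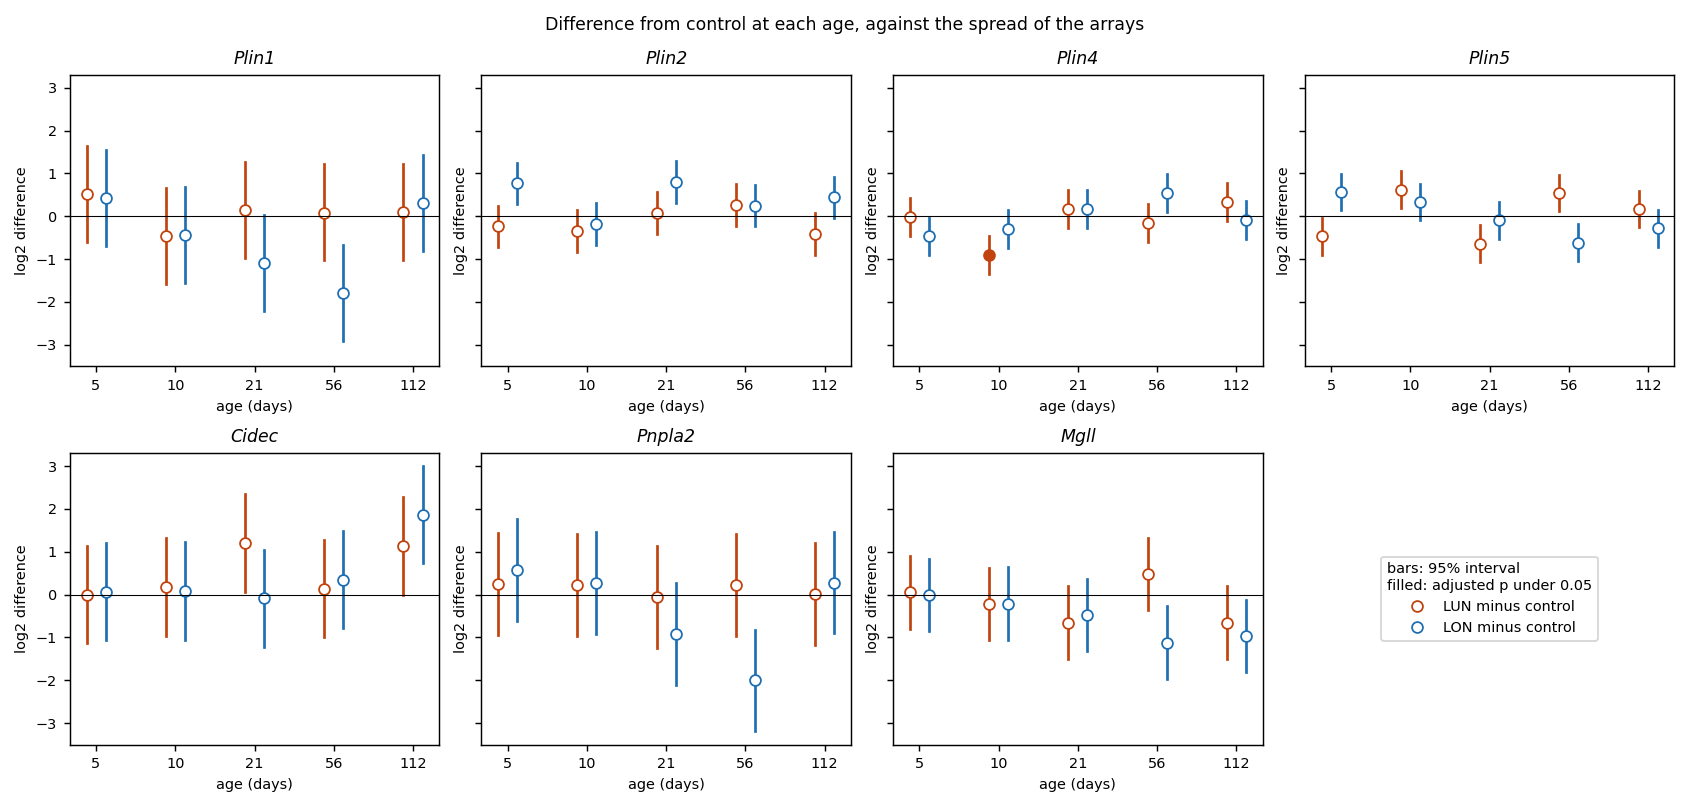
Log2 difference from control of the 7 genes against age in days, for LUN and LON. Points are limma estimates from 3 arrays a group with their 95% intervals, and filled points have an adjusted p under 0.05. The 1 filled point is Plin4 in LUN at day 10.

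Over the 35 tests of LUN against control, 1 was called, and over the 35 of LON against control 0 were, in limma's test with Benjamini-Hochberg adjustment, where 1.56% of all LON tests were called. At an unadjusted p under 0.05 there were 6 LUN tests (3 higher, 3 lower) and 11 LON tests (5 higher, 6 lower). The study's t-test, unadjusted, gave 10 and 9. The arrays of the 2 groups did not overlap for 1, 4, 3, 2 and 3 of the 7 genes in LUN, day 5 to day 112 in order, where 17.9%, 21.5%, 19.5%, 13% and 15.9% of all probes did not overlap. In LON this was so for 4, 2, 2, 3 and 4 genes, where 21.8%, 17.6%, 16.8%, 20.8% and 21.1% of all probes did not overlap. The median log2 difference of the 7 genes from control, day 5 to day 112 in order, was -0.004, -0.22, 0.08, 0.23 and 0.11 in LUN and 0.42, -0.17, -0.09, -0.61 and 0.28 in LON. Over all named genes the medians lay between -0.10 and 0.13.

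**Figure D3:**
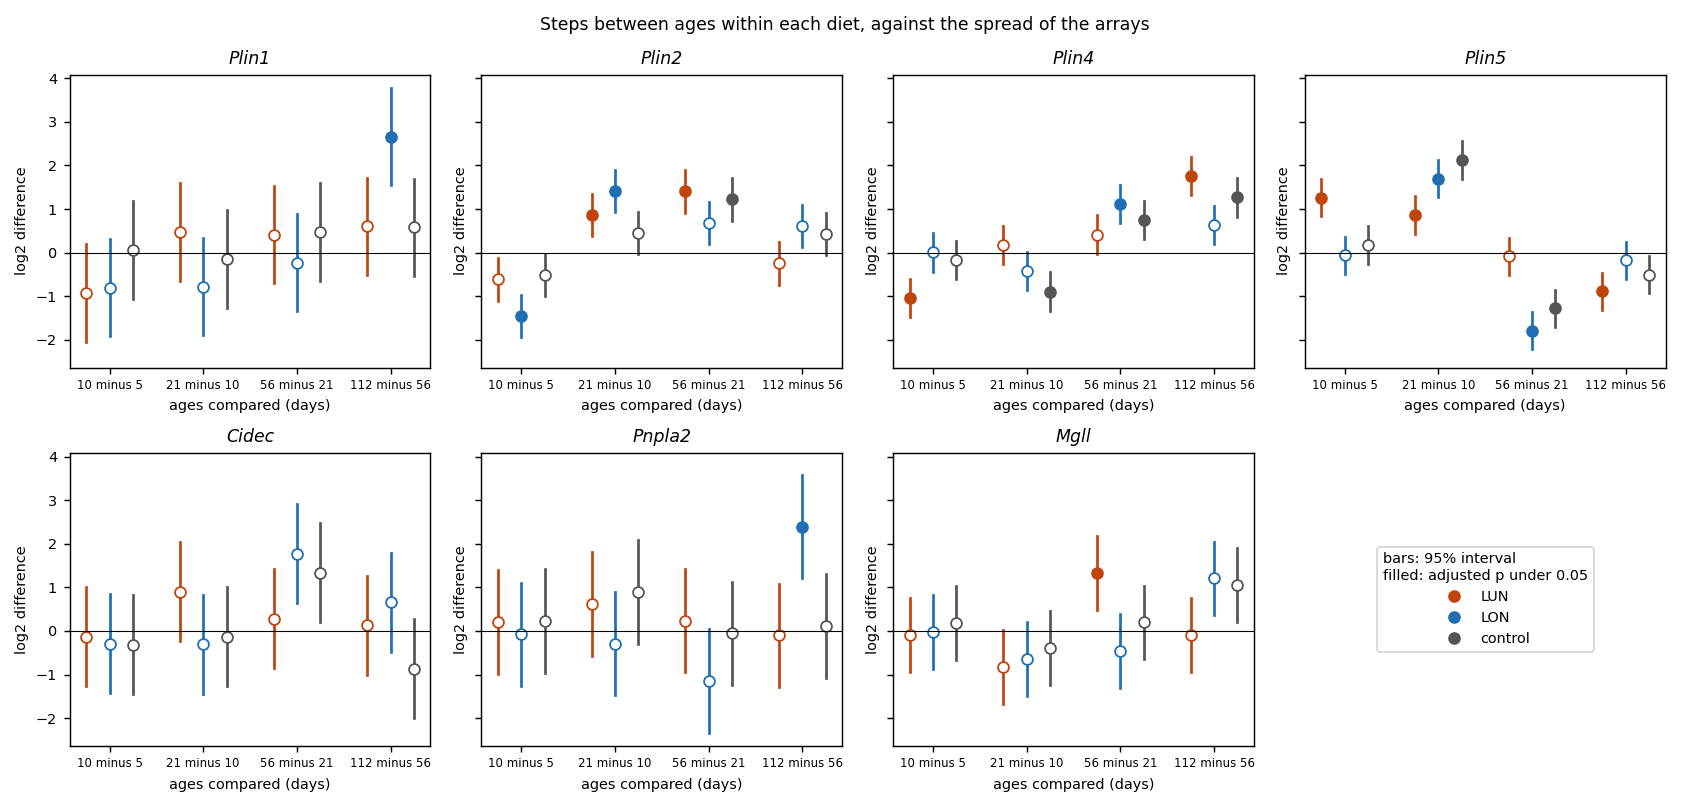
Log2 difference of the 7 genes between neighbouring ages (later minus earlier, in days), for LUN, LON and control from left to right. Points are limma estimates from 3 arrays a pool with their 95% intervals, and filled points have an adjusted p under 0.05. Plin5 went up to day 21 in all 3 diets and came down by day 56 in LON and control.

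Of the 84 steps between neighbouring ages within a diet, 21 were called, 15 higher and 6 lower at the later age, where 3% of all tests were called. This share and those of the other tests are over all probes, dim ones included. Each of the 7 probes was brighter than at least 89.7% of the probes, so the shares are no like-for-like base for them. They were 7 of Plin5, 6 of Plin4, 5 of Plin2 and 1 each of Plin1, Pnpla2 and Mgll, against the spread of the arrays. Against the variation between pools, with diet and age as terms, 0 of 28 steps passed limma's test, where 0.423% of all tests were called, and 10 had an unadjusted p under 0.05 (8 higher, 2 lower). The nearest were the step of Plin5 from day 10 to 21, at 1.56 (SE 0.36, adjusted p = 0.0724), that of Plin2 from day 21 to 56, at 1.10 (SE 0.25, adjusted p = 0.0973), and that of Plin4 from day 56 to 112, at 1.22 (SE 0.29, adjusted p = 0.138). All 3 went the same way in each of the 3 diets. Without the 3 arrays and the LON day 56 pool the Plin5 step passed (1.51, adjusted p = 0.0451). A difference shared by all 5 ages was called for 0 of 14 tests, where 0.108% of all tests were called, with 1 unadjusted p under 0.05, that of Mgll in LON (-0.56, 95% interval -1.10 to -0.01, adjusted p = 0.355). That difference was -0.24 (unadjusted p = 0.301) without the 3 arrays and the LON day 56 pool.

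Among other genes of lipolysis control, G0s2 and Ptger3 were lower and Hcar2 and Angptl4 higher in LUN than in control at day 21. G0s2 encodes an inhibitor of the Pnpla2 lipase, Ptger3 and Hcar2 encode receptors through which prostaglandin E2 and ketone bodies restrain lipolysis, and Angptl4 encodes a fasting-induced inhibitor of lipoprotein lipase. At day 21 G0s2 was 20370, 25037 and 22056 in LUN, against 162090, 92145 and 134124 in control, a difference of -2.49 (SE 0.28, adjusted p = 3.61e-07). Ptger3 was 1907, 1026 and 1957 in LUN, against 9329, 10632 and 9473 in control (-2.65, adjusted p = 2.72e-10). Hcar2 went the other way, at 10268, 10755 and 9692 in LUN, against 3538, 2023 and 3822 in control (1.76, adjusted p = 1.61e-05), and so did Angptl4 (1.10, adjusted p = 0.0094). No array of LUN overlapped control in any of the 4 genes at day 21, and each call held when any 1 of the 6 arrays was left out.

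**Figure D4:**
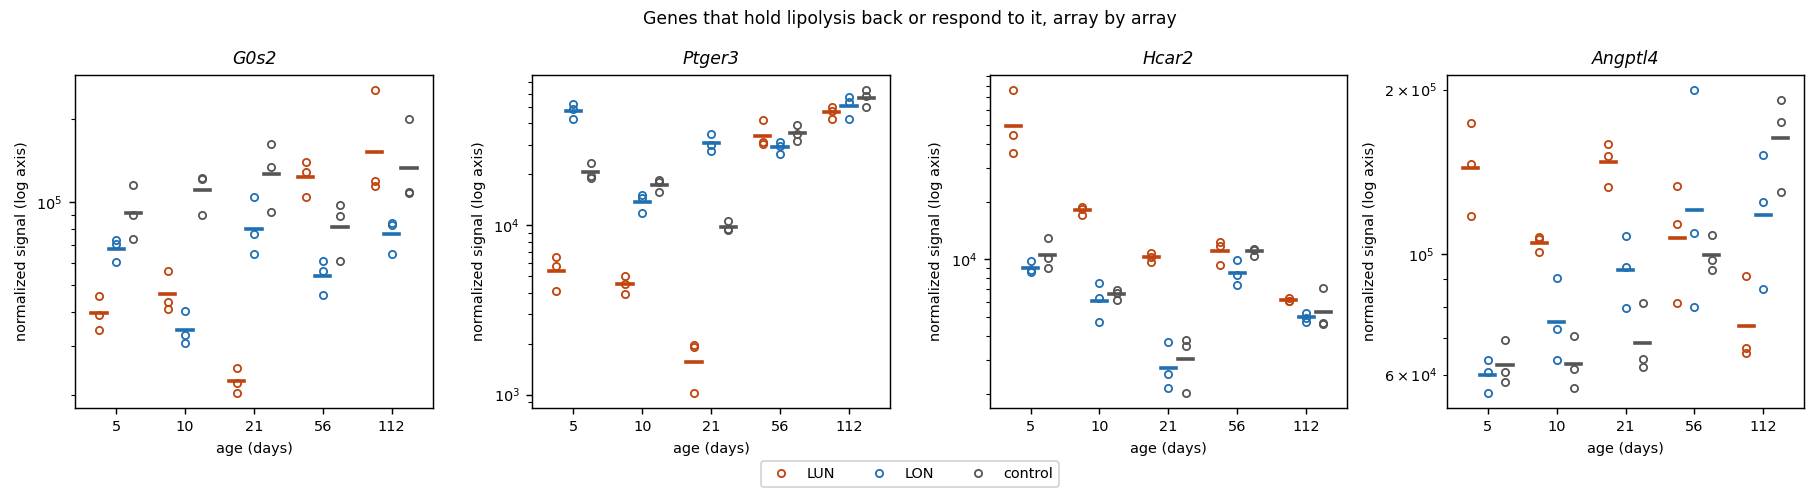
Normalized signal (log axis) of G0s2, Ptger3, Hcar2 and Angptl4 against age in days, for LUN, LON and control from left to right. Circles are single arrays, 3 from 1 pool of 12 mice, and bars are the mean on the log2 scale. At day 21 LUN lay below control for G0s2 and Ptger3 and above it for Hcar2 and Angptl4.

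Calls in these genes were also made at days 5 and 10. Ptger3 was lower by 1.94 at day 5 and by 1.95 at day 10, and Hcar2 was higher by 2.23 and 1.45, all held with any 1 array left out. G0s2 was lower by 1.21 at day 5 (adjusted p = 0.0182) and by 1.25 at day 10 (adjusted p = 0.0134), each lost without any of 4 of the 6 arrays, and Angptl4 was higher by 1.20 at day 5, lost without LUN replicate 3. At day 56 none of the 4 was called, and at day 112 Angptl4 was lower by 1.15 (adjusted p = 0.0245), a call lost without LUN replicate 1 or 3 or control replicate 2. The LUN step from day 21 to 56 differed from the control step by 3.10 for G0s2 (adjusted p = 5.01e-06), by 2.60 for Ptger3 (adjusted p = 6.29e-07) and by -1.76 for Hcar2 (adjusted p = 0.00459), each held with any of the 12 arrays left out. In LON, G0s2 was lower than control at day 10, at 40237, 32906 and 30795 in LON, against 121584, 121822 and 90046 in control (-1.68, adjusted p = 0.000313). Ptger3 was higher in LON at day 5 by 1.21 and at day 21 by 1.65.

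From day 5 to day 112 in order, 1.41%, 1.39%, 2.71%, 0.203% and 0.551% of all probes were called in LUN against control. Of 11 other lipase and cofactor genes measured, from 14 listed, LUN against control called 1 higher and 1 lower at day 5, 1 lower at day 10, 1 higher and 1 lower at day 21 and 1 lower at day 112, with medians between -0.08 and 0.43. Of 13 other lipid droplet genes measured, from 17 listed, 1 was called higher and 1 lower at day 5, Hilpda and Cidea, and 1 higher at day 112, Cavin1, with medians between -0.23 and 0.30. Hilpda, a droplet protein that inhibits the Pnpla2 lipase, was 13299, 15970 and 13553 in LUN at day 5, against 6545, 8623 and 6624 in control (0.98, adjusted p = 0.0139), a call lost without control replicate 1 or 3 or LUN replicate 2. It also rose from day 56 to 112 over the pools, by 1.40 (adjusted p = 0.0497). Of 13 genes of hormonal control measured, from 23 listed, LUN against control called 1 higher and 1 lower at day 5, 2 higher and 1 lower at day 10 and 1 of each at day 21. Of 9 regulator genes measured, from 10 listed, 1 was called higher (Klf15, 1.12) and 1 lower (Ppara, -1.10), both at day 21. In LON against control, 1.77%, 0.739%, 1.4%, 1.54% and 2.38% of all probes were called from day 5 to day 112 in order. Of the 13 other lipid droplet genes, 2, 1, 2, 1 and 3 were called higher at these ages and 0 lower. Cavin1, which encodes a coat protein of caveolae, was among them at all 5 ages, by 1.57, 0.97, 1.15, 1.02 and 1.70 in order. At day 112 its signal was 17700, 18392 and 17317 in LON, against 5158, 5223 and 6090 in control, and at every age LON and control did not overlap. The Cavin1 calls at days 5 and 112 held with any 1 array left out, and that at day 10 was lost without any 1 of the 6. Fitm2, which encodes a protein of droplet formation, was higher at day 5 by 1.11 and at day 112 by 1.29. Of the lipase and cofactor genes, 1 was called lower at day 10 (G0s2), 1 lower at day 56 (Abhd6, -1.07) and 1 higher at day 112 (Lipa, 1.07). The genes of hormonal control gave 2, 0, 3, 0 and 1 calls over the 5 ages, each of them higher, and the regulators gave 1 call, lower (Ppara, -0.97, after the high fat diet). The calls of Lipa and Ppara at day 112 were lost without the 3 arrays that stood apart, at 0.68 and -0.50. The medians of these 4 lists in LON lay between -0.25 and 0.42. The adrenergic receptors on the list had no single-symbol probe and were not analysed here.

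**Figure D5:**
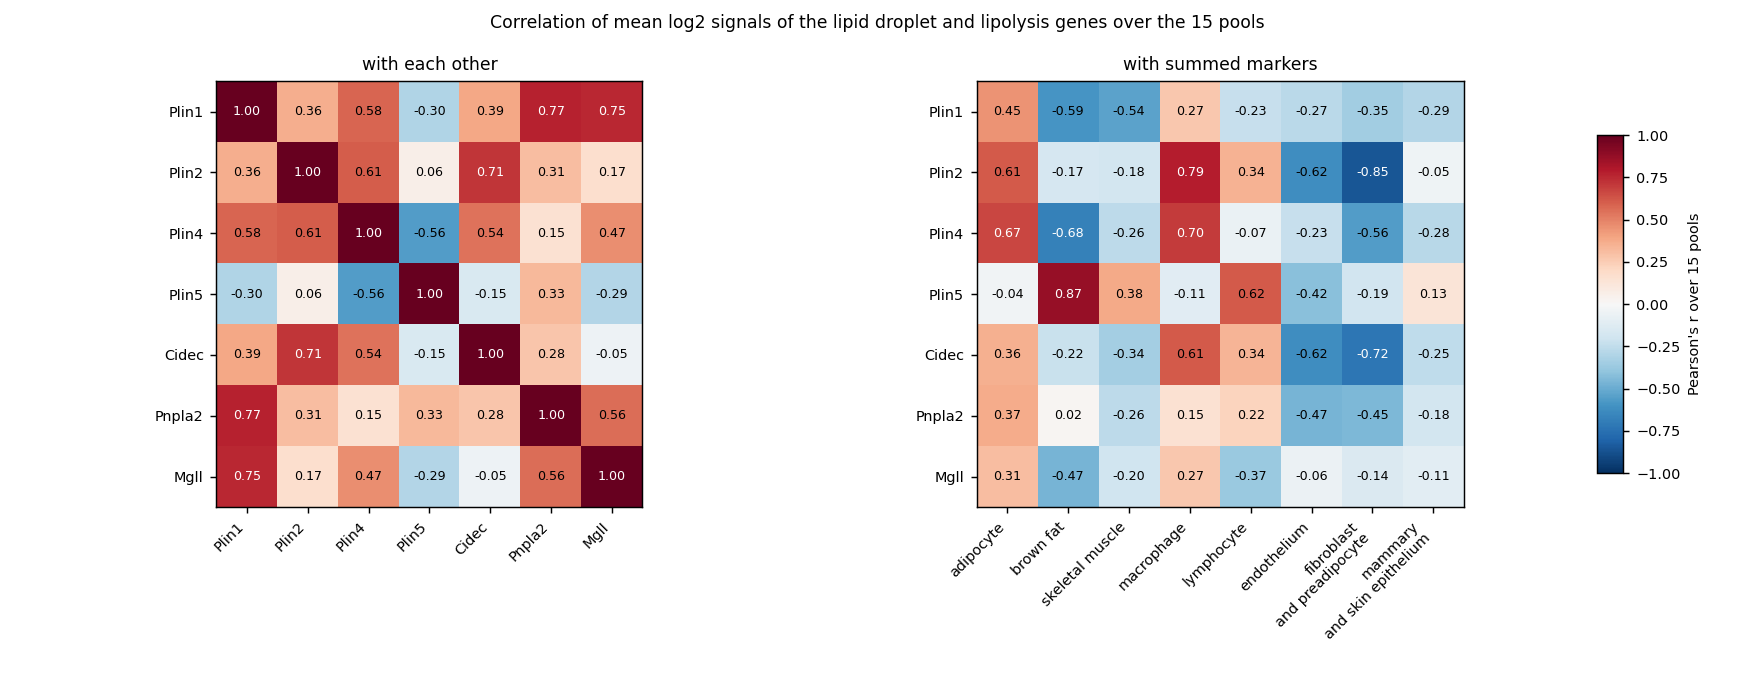
Pearson's r of the mean log2 signals over the 15 pools, between the 7 genes (left) and between each gene and the summed signal of 8 sets of cell type markers (right). Plin5 stands apart from the other perilipin genes, with r = 0.87 with the brown fat markers and r = -0.56 with Plin4.

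Over the 15 pools, with all arrays, the genes fell into no single pattern. Plin2 and Cidec had r = 0.72, Plin1 and Pnpla2 r = 0.77 and Plin1 and Mgll r = 0.75. With the mean of each age removed, Plin2 and Cidec had r = 0.04 and Plin1 and Pnpla2 r = 0.92. Without the 3 arrays that stood apart and the LON day 56 pool, Plin1 and Pnpla2 had r = 0.57 over the other 14 pools and r = -0.04 with the mean of each age removed, and Plin1 and Mgll r = 0.58 and -0.03. Other pairs rose in that setting. Over the 14 pools Plin1 had r = 0.891 with Plin2, 0.879 with Cidec and 0.804 with Plin4. Over all 15 pools these were 0.362, 0.385 and 0.579. With the mean of each age removed in the 14 pools they were 0.585, 0.285 and -0.058. From lowest to highest pool, the genes spanned from 4.50-fold (Mgll) to 7.35-fold (Plin2, from LUN at day 10 to LON at day 112). For Plin1, Pnpla2 and Mgll the lowest pool was LON at day 56, whose arrays disagreed with each other, so their spans rest on that pool. Among 8858 genes with a signal above the median probe, the 3 most like Plin5 were Ldhb (r = 0.95), Endog (r = 0.93) and Arfrp1 (r = 0.91). Those most like Plin2 were Krcc1 (r = 0.95), G6pd2 (r = 0.94) and Acss2 (r = 0.94), and those most like Plin4 were Ccdc80 (r = 0.92), Slc6a13 (r = 0.92) and Srpx2 (r = 0.92). For Plin1 the nearest was Ttc1 (r = 0.93), for Cidec Abhd3 (r = 0.88), for Pnpla2 Unc93b1 (r = 0.92) and for Mgll Mrps6 (r = 0.89). Without the 3 arrays that stood apart this order changed for Plin1, Cidec and Mgll. Akr1b8 then had r = 0.909 with Plin1 and Ttc1 0.902, and Sqstm1 had r = 0.906 with Cidec and Abhd3 0.871. With Mgll, 9130401M01Rik had r = 0.843 and Mrps6 0.799.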

How the data were processed

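Total RNA from 15 pools was labelled and hybridized in triplicate by the authors to Applied Biosystems arrays read by chemiluminescence. The deposited raw values are linear probe intensity units with no normalization between arrays. The deposited normalized values are log2 signals after quantile normalization by the authors, in which the LON arrays share a median of their own (9.81, against 9.78 in the others). Here the raw intensities of all 45 arrays were quantile-normalized together and log2-transformed (R 4.3.3, limma 3.58.1), with the deposited log2 values as an alternative. Probes with several symbols (247) or none (18354) of the 33012 were not named, and gene IDs were updated through RefSeq (GRCm38.p6), which matched 14402 of 14411 single-symbol probes.

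Group means were fitted with limma (lmFit, eBayes) and each contrast's p-values were adjusted (Benjamini-Hochberg) across the 33012 probes and called under 0.05. A second limma fit used the 15 pool means, with diet and age as terms and 8 residual degrees of freedom. Precision is limited by having 3 arrays of each pool. The 7 genes, the gene lists and the comparisons were chosen with earlier results of these data known. Pathway genes outside the 8 were named from lists, up to 4 called genes of the largest change in a comparison. The genes most like each of the 7 were the 3 with the highest Pearson correlation over the pools. The steps within each diet were added after the data were seen. Both limma fits were tested on simulated data. Figures were drawn with matplotlib 3.10.9. Signals are linear normalized intensity and differences are log2.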

Additional observations from a re-analysis of the deposited data

Results flagged for a closer look

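Among the 7 genes, 1 result differed between diets by a test of the difference itself: the LUN step of Plin5 from day 21 to day 56 exceeded the control step by 1.19 log2 units (SE 0.30, 95% interval 0.58 to 1.79, limma adjusted p = 0.0326). Plin5 differed by -0.09 between those ages in LUN and fell by 1.28 in control. The test measures the spread of arrays from 1 pool a group, and the estimate ranged from 0.64 to 1.26 over 22 alternatives, of which 12 kept the call.

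The same test found a difference in the step from day 21 to day 56 for other genes described above. LUN exceeded control by 3.10 log2 units for G0s2 (limma adjusted p = 5.01e-06), by 2.60 for Ptger3 (adjusted p = 6.29e-07), by 2.75 for Ucp1 (adjusted p = 4.98e-07) and by 1.46 for Ppara (adjusted p = 0.0299), and Hcar2 differed by -1.76 (adjusted p = 0.00459). In LON the step differed from that of control by -1.92 for Ptger3 (adjusted p = 3e-04) and by -1.44 for Ucp1 (adjusted p = 0.0241). The calls of Ppara in LUN and of Ucp1 in LON were lost without any 1 of 9 and of 7 of the 12 arrays, and the other 5 held with any of the 12 left out.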

How the results depend on the processing

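The tests of LUN against control gave 1 call (Plin4 at day 10) with the deposited values, median scaling, cyclic loess, an offset before the logarithm or an intensity trend, 2 among probes above the median signal, 0 with only the arrays compared, 10 with the methods' t-test unadjusted and 0 after Benjamini-Hochberg, and 0 to 2 with 1 array left out. Chosen after seeing the data, leaving out the 3 arrays that stood apart gave 3, and leaving out the LON day 56 pool too gave 4. The tests of LON against control gave 0 calls in the fit reported, 3 with median scaling, 1 with cyclic loess, 5 among probes above the median, 4 with the intensity trend, 9 with the t-test unadjusted, 3 without the 3 arrays and 0 to 3 with 1 array left out (3 without LON replicate 2 at day 56). The 1 difference between diets in a step (Plin5) became 0 with median scaling and with only the arrays compared, and 0 to 3 with 1 array left out. The 21 steps within diets became 2 with only the arrays compared, 38 with the t-test unadjusted and 6 after Benjamini-Hochberg, and 19 to 24 with 1 array left out. The 0 steps over pools became 3 among probes above the median, 1 without the 3 arrays and the LON day 56 pool, and 12 or, without the 3 arrays, 15 against the spread of arrays. The 0 diet differences over ages became 1 against the spread of arrays, with or without the 3 arrays. Over 414 alternatives of 23 called gene results, 326 kept the call, 88 lost it and 0 changed sign. The cause of these changes was not tested.

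A replicate block gave 1 call for LUN, 0 for LON, 1 for the difference between diets and 19 of the steps within diets. Replicate numbers did not pair the arrays: over 66 pairs of same-numbered arrays the correlation of their deviations was between -0.384 and 0.397, and over 0.1 for 3. A second probe could not be tried, since each gene had 1. Against the fit reported, median scaling moved the median of all probes by -0.23 to 0.30 log2 units and cyclic loess by -0.22 to 0.11, depending on the comparison. With 3 arrays of 1 pool a group, the SE of a difference was 0.58 for Pnpla2 and 0.56 for Cidec on the log2 scale, against 0.21 for Plin5.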
